A study of Mus musculus with 6 samples.

Results

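The Asb genes, the Kelch-type genes of the Klhl and Kbtbd families, and the cullins were followed in the gastrocnemius, a calf muscle, after loss of its nerve. Members were taken by name alone, as rows whose symbol begins with Asb, Klhl, Kbtbd or Cul followed by a digit, which gave 66 of the 22187 gene rows: 16 Asb genes, 42 Kelch-type genes and 8 cullins. The denervated group was 3 mice whose left sciatic nerve had been interrupted by excision of 2 mm, with the muscle taken 2 weeks later. The control group was the left gastrocnemius of 3 normal mice, for which the labels name no sham operation, so effects of the surgery and of the lost nerve cannot be told apart. All 6 mice were male C57BL/6J, recorded as 12 weeks old, and each library is whole-muscle RNA of 1 mouse.

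Cullins are scaffold proteins of the largest group of ubiquitin ligases. One end of the scaffold holds a RING protein that brings the ubiquitin-charged enzyme, and the other end holds an adaptor that picks the substrate. Asb proteins carry ankyrin repeats and a SOCS box, through which they join Cul5 by way of the elongins, and most Kelch proteins of the Klhl and Kbtbd type join Cul3 directly through a BTB domain. Several of these adaptors are found mainly in striated muscle, and mutations in human KLHL40, KLHL41 and KBTBD13 cause nemaline myopathy, a muscle disease with rod-like deposits of thin-filament proteins.

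Levels are length-normalized transcript shares (TPM) multiplied by 1 factor per library, which corrects for gene length, so levels can be set side by side between genes. Each log2 fold change, given with its standard error (SE), is the denervated mean less the control mean of log2(level + 1), a scale that understates the change of genes with low levels. Genes with a level of 0.5 or more in at least 3 of 6 libraries were tested with limma, and a gene is called higher or lower when its Benjamini-Hochberg adjusted p over all 12392 tested genes is below 0.05. The number of reads per library is unknown. Of all tested genes 47.3% were called, 24.3% as lower and 22.9% as higher, and the 3 values of each group did not overlap for 57.5%, so a call by itself was common in this comparison. The median log2 fold change of all tested genes was -0.01. In addition, 5 other scalings between libraries were fitted, and 2 of them moved that median by over 0.1, to 0.61 with equal totals of protein-coding rows and to 0.23 with equal totals after removal of the 20 most abundant genes. The lowest median among the 5 was -0.041, with quantile normalization. A rise that is kept under all 5 is therefore only weakly checked by them.

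Whole muscle holds several cell types, and fewer cells of a type cannot be told apart from less RNA per cell. Of 9 markers of muscle fibres 6 were lower and 1 was higher, and their summed level was 12134 to 14132 in denervated muscle and 28088 to 32060 in control muscle. Of 7 macrophage and monocyte markers 4 were higher and 0 lower, with sums of 33.8 to 37.8 in denervated and 16.2 to 19.4 in control muscle. All 5 endothelial markers were lower (sums of 20.9 to 23.1 in denervated and 42.5 to 47.1 in control muscle), as were all 5 of pericytes and smooth muscle (36.7 to 41.1 in denervated and 103 to 110 in control muscle) and 3 of 5 of fibro-adipogenic progenitors (133 to 155 in denervated and 251 to 313 in control muscle). Schwann and nerve markers had 1 higher and 1 lower of 4 tested, with sums of 6.42 to 7.70 in denervated and 12.1 to 16.6 in control muscle. The 2 tested satellite cell markers (sums over the list of 5.33 to 6.11 in denervated and 3.08 to 3.73 in control muscle) and the 3 tested adipocyte markers (7.67 to 9.76 in denervated and 1.4 to 5.10 in control muscle) were higher. No lymphocyte marker passed the filter, with sums of 0.812 to 1.03 in denervated and 0.172 to 0.415 in control muscle. No marker was listed at 0 in every library of a group, and the part of these shifts in the results below was not tested. With equal protein-coding totals the marker counts moved to 4 higher and 3 lower for fibres, 2 higher and 1 lower for the progenitors and 0 higher and 2 lower for endothelium. That scaling called 9036 of all 12392 tested genes higher and 668 lower.

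Most Asb transcripts were called lower after denervation under the scaling as deposited. All 16 Asb genes passed the level filter, and 11 of them (68.8%) were lower, 1 was higher and 4 were not called. Among all tested genes 24.3% were lower and 22.9% higher. The median log2 fold change of the family was -1.10, and 9 members were called lower at a log2 fold change of -1 or below, a size reached by 5.43% of all tested genes. The summed Asb level was 179, 159 and 189 in the denervated mice and 305, 321 and 347 in the control mice. That is 176 ± 15.3 in denervated and 324 ± 21.5 in control muscle (SD, n = 3 each), or 1.84 times as much in control muscle, with no overlap between the groups. This gap depended on the scaling: with equal protein-coding totals the sums were 251 ± 20.2 in denervated and 249 ± 16.6 in control muscle and overlapped.

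Asb11 (ENSMUSG00000031382), which in zebrafish acts on Delta and keeps progenitor cells dividing, had the largest fall of the family on the log2(level + 1) scale. By the ratio of means Asb18 came first, with 10.6 times as much in control muscle, against 8.78 times for Asb11. Asb11 was at 4.79, 2.94 and 4.24 in the denervated mice, against 36.0, 34.3 and 34.9 in the control mice. The groups lay far apart, at 3.99 ± 0.947 in denervated and 35.0 ± 0.870 in control muscle (log2 fold change -2.87, SE 0.142, adjusted p = 5.24e-06). Asb18 was at 1.299, 0.484 and 0.844 in the denervated mice and 10.01, 8.35 and 9.55 in the control mice. No denervated mouse came near the control range of Asb18 (log2 fold change -2.48, SE 0.162, adjusted p = 1.80e-05). Asb12 was at 2.69, 2.52 and 3.32 in the denervated mice and 19.8, 17.1 and 18.8 in the control mice. Its group means were 2.84 ± 0.423 in denervated and 18.6 ± 1.39 in control muscle, a log2 fold change of -2.35 (SE 0.109, adjusted p = 3.94e-06). Asb10 was at 3.62, 2.83 and 4.02 in the denervated mice and 10.2, 11.3 and 12.3 in the control mice (log2 fold change -1.46, SE 0.125, adjusted p = 6.68e-05).

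The abundant Asb genes separated into members that fell and 1 that did not. Asb2 (ENSMUSG00000021200), which directs the breakdown of filamins and restrains muscle mass when raised, was at 40.2, 35.7 and 47.6 in the denervated mice and 88.9, 90.2 and 99.6 in the control mice. The ranges were well apart, and its log2 fold change was -1.16 (SE 0.118, adjusted p = 0.000151). Asb8 was at 18.2, 16.3 and 19.4 in the denervated mice and 34.5, 38.3 and 42.5 in the control mice (log2 fold change -1.05, SE 0.108, adjusted p = 0.000160). Asb14 was at 15.1, 13.9 and 13.4 in the denervated mice and 31.4, 32.5 and 35.4 in the control mice (log2 fold change -1.17, SE 0.0884, adjusted p = 3.43e-05). For both genes each denervated mouse lay below each control mouse.

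Asb5 (ENSMUSG00000031519), level with Asb2 as the most abundant member over all libraries, showed no such fall. It was at 75.5, 67.2 and 76.8 in the denervated mice and 50.5, 62.7 and 70.2 in the control mice. The groups overlapped, and the log2 fold change of 0.27 (SE 0.130) was not called (adjusted p = 0.131). Its share of the summed Asb level was 41.7% ± 0.911 in denervated and 18.8% ± 1.93 in control muscle, while the share of Asb2 was 23.3% ± 1.57 in denervated and 28.7% ± 0.527 in control muscle. Asb5 was called higher under 3 of 5 other scalings, at log2 fold changes of 1.15 with equal totals of protein-coding rows (adjusted p = 0.000116), 0.61 after removal of the 20 most abundant genes from the totals (adjusted p = 0.00576) and 0.35 with equal totals of all rows (adjusted p = 0.0481).

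Asb6, which binds an adaptor protein of the insulin receptor in fat cells, was the 1 member called higher. Its level was 3.07, 3.00 and 3.48 in the denervated mice and 1.10, 2.28 and 1.35 in the control mice. Control 2 stood above the other controls, yet below all denervated mice (log2 fold change 0.72, SE 0.166, adjusted p = 0.00869). The low members Asb15 and Asb4 had log2 fold changes of -1.201 and -1.152, with Asb15 at 0.399 ± 0.00379 in denervated and 2.23 ± 0.393 in control muscle and Asb4 at 0.382 ± 0.141 in denervated and 2.06 ± 0.198 in control muscle (adjusted p = 8.27e-05 and 0.000102). Asb16 and Asb13 fell less, by 0.46 and 0.35 on the log2 scale (adjusted p = 0.0131 and 0.0133). Asb1, Asb3 and Asb7 were not called, with group means of 1.40 to 1.67 in denervated and 1.33 to 2.01 in control muscle. None of the 12 Asb calls was lost when any 1 library was left out.

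The size of the Asb falls depended on the scaling. With equal totals of protein-coding rows the median of all tested genes moved to 0.61 and that of the Asb genes to -0.24, or -0.85 less the median of all genes, and 7 Asb genes were called lower and 7 higher. Of all 12392 tested genes 9036 were higher and 668 lower under that scaling. Of the 11 lower calls, 7 were made under all 5 other scalings, which left Asb2, Asb8, Asb16 and Asb13 short, and Asb16 and Asb13 were called higher at 0.34 each with equal protein-coding totals.

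**Figure D1:**
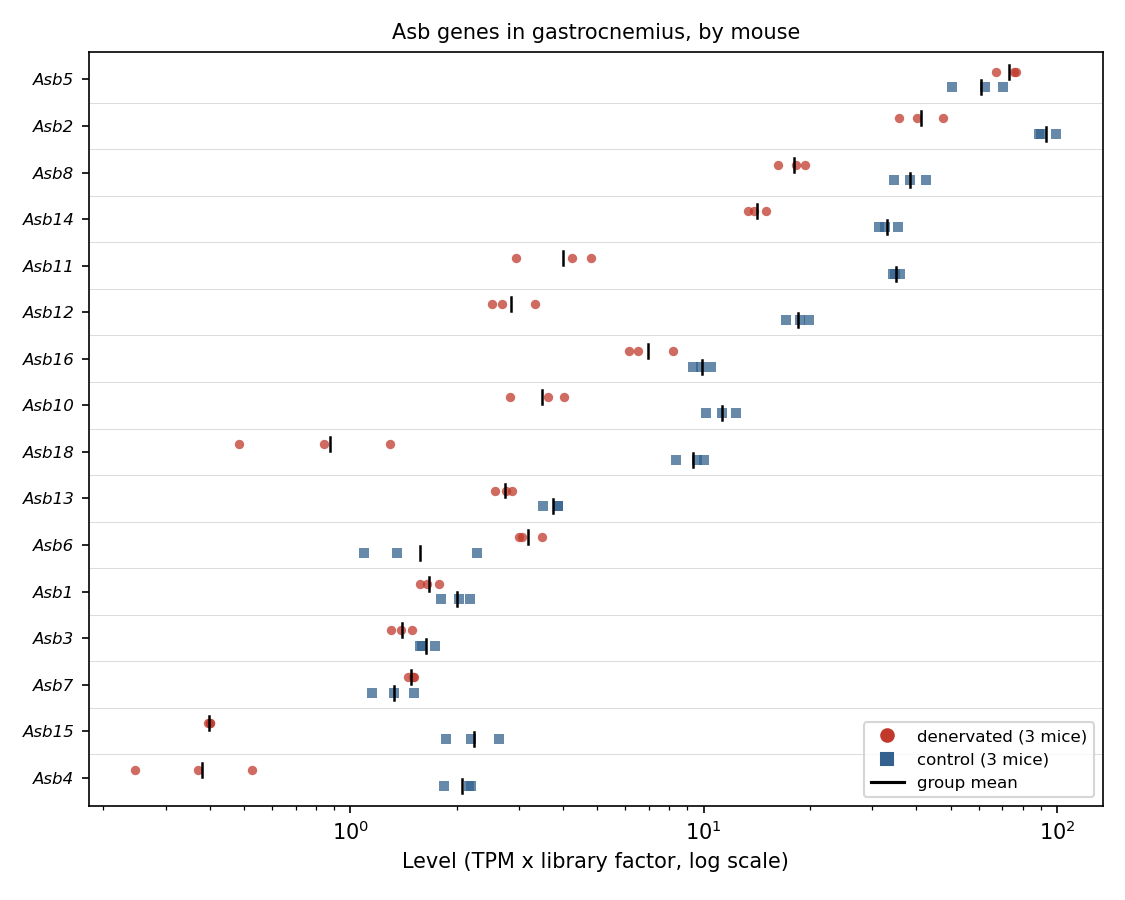
Level of each of the 16 Asb genes in each mouse (TPM multiplied by a library factor, log axis), with denervated mice as circles, control mice as squares and a black bar at the group mean. Asb11, Asb12 and Asb18 show the widest gaps, with means of 3.99, 2.84 and 0.876 in denervated muscle and 35.0, 18.6 and 9.30 in control muscle, while the Asb5 groups overlap.

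The Kelch-type genes were more divided. Of 42 members 34 passed the level filter, and of these 14 (41.2%) were lower, 7 (20.6%) were higher and 13 were not called. The median of their log2 fold changes was -0.17. Among all tested genes 24.3% were lower and 22.9% higher, so the Kelch-type share of higher calls was close to that of all genes. At a log2 fold change of 1 or more in size, 7 were called lower and 1 higher, sizes that 5.43% and 6.12% of all tested genes reached. The summed Kelch-type level was 206, 202 and 205 in the denervated mice and 329, 327 and 329 in the control mice. The sums varied little within each group, at 204 ± 1.83 in denervated and 328 ± 1.08 in control muscle (SD, n = 3 each), and did not overlap. The order turned with equal protein-coding totals, to 292 ± 1.83 in denervated and 252 ± 3.20 in control muscle. The count of 7 higher genes fell to 4 without control 1, 4 without control 3 and 3 without denervated 3. The family median turned positive with equal protein-coding totals (0.42) and after removal of the 20 most abundant genes (0.07), and was -0.19 and -0.16 less the median of all genes under those scalings.

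The 3 most abundant Kelch-type genes differed in their calls. Klhl31 fell steeply, Kbtbd5 (ENSMUSG00000074001), the gene now named Klhl40, was called higher but lost the call in 4 of 6 fits that left out 1 library, and Kbtbd10 (ENSMUSG00000075307), now named Klhl41, was called lower by a small margin that depended on the scaling. Their promoters are printed here because these 3 genes hold the highest levels of the family, beside that of Asb11 with the largest Asb fall on the log2(level + 1) scale. Each run is the 250 bases before the RefSeq transcription start in GRCm38.p6, 5′ to 3′, and capitals mark matches to the E-box CANNTG or to the MEF2-type motif, which is CTA and TAG with 4 bases of any kind between them. Both motifs read the same on either strand.
Klhl31 promoter, chr9:77636482-77636731, plus strand: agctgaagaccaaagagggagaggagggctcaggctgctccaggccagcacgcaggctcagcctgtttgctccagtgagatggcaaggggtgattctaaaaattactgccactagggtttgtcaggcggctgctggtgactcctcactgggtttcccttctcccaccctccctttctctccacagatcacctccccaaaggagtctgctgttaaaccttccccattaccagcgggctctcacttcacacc
Kbtbd5 promoter, chr9:121777357-121777606, plus strand: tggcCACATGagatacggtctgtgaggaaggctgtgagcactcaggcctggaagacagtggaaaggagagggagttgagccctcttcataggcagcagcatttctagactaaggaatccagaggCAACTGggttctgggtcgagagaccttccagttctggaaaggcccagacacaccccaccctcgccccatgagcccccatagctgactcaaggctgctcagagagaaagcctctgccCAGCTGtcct
Kbtbd10 promoter, chr2:69669870-69670119, plus strand: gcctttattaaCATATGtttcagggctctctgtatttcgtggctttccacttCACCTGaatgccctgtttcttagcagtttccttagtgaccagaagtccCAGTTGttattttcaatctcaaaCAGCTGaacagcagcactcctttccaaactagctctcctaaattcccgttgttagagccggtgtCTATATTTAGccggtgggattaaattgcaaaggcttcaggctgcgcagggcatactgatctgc
Asb11 promoter, chrX:164436744-164436993, plus strand: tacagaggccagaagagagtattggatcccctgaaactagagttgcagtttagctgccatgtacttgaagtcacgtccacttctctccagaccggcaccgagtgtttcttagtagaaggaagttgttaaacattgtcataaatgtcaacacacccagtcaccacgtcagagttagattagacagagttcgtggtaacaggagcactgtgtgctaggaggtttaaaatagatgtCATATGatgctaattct

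The E-box is the motif class bound by myogenic factors such as myogenin, and MEF2 factors are transcription factors of muscle genes. In these windows Klhl31 had 0 E-box and 0 MEF2-type matches, Kbtbd5 had 3 E-boxes, Kbtbd10 had 4 E-boxes and 1 MEF2-type match, and Asb11 had 1 E-box. RefSeq promoters were found for 59 of the 66 members, in 79 windows, since some genes have several starts whose windows can overlap. An E-box was found in 71.4% of 21 Asb windows, 55.1% of 49 Kelch-type windows and 44.4% of 9 cullin windows, against 66.2% of all 32851 windows of that length. The form CAGCTG, which is contained in CANNTG, was found in 14.3%, 20.4% and 0% of them in the same order, against 13.0% of all windows. The MEF2-type motif was in 4 Asb windows (19.0%), 4 Kelch-type windows (8.16%) and 0 cullin windows, against 3.20% of all. The windows with it belonged to Asb1, Asb12, Asb16, Asb18, Kbtbd10, Kbtbd12, Kbtbd13 and Klhl33. Such matches describe letters only and are not evidence of binding.

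Klhl31 (ENSMUSG00000044938), which mouse muscle needs for normal sarcomeres and which targets filamin C, had the largest fall of the family on the log2(level + 1) scale. By the ratio of means Klhl33 came first, with 6.41 times as much in control muscle, against 5.80 times for Klhl31. Klhl31 was at 11.7, 13.4 and 12.9 in the denervated mice and 74.8, 72.7 and 72.7 in the control mice. Both groups were tight and far apart, at 12.6 ± 0.871 in denervated and 73.4 ± 1.197 in control muscle (log2 fold change -2.45, SE 0.0831, adjusted p = 1.00e-06). Its share of the summed Kelch-type level was 6.20% ± 0.473 in denervated and 22.4% ± 0.345 in control muscle.

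Kbtbd10, whose protein steadies nebulin and binds the thin-filament partner Nrap, was the most abundant member over all libraries. It was at 63.2, 68.0 and 63.0 in the denervated mice and 79.3, 77.1 and 75.1 in the control mice. The groups did not overlap, but the difference was small (log2 fold change -0.25, SE 0.0790, adjusted p = 0.0328). The call was lost when any 1 of the 3 controls, denervated 1 or denervated 3 was left out (adjusted p = 0.0701 to 0.0947) and under all 5 other scalings in that direction, and with equal protein-coding totals the gene was called higher at 0.63 (adjusted p = 0.000206). The median of all tested genes stood at 0.61 under that scaling. Its share of the Kelch-type sum was 31.7% ± 1.67 in denervated and 23.5% ± 0.652 in control muscle.

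Kbtbd5, which encodes a stabilizer of nebulin and leiomodin 3, was at 24.25, 18.15 and 22.03 in the denervated mice and 14.77, 18.09 and 14.71 in the control mice. Denervated 2 and control 2 were almost level, so the gap between the groups was narrow (log2 fold change 0.41, SE 0.131, adjusted p = 0.0338). The call was lost when control 1, control 3, denervated 1 or denervated 3 was left out (adjusted p = 0.0894 to 0.109) and with the replicate number as a block (adjusted p = 0.0745), and was made under all 5 other scalings. Those scalings are a weak check on a rise, as they mostly raised the median of all genes. In GENCODE M21 gene models, 21.6% of its exonic length is shared with a gene on the opposite strand, and the strand of the reads is not stated.

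Other Kelch-type genes fell steeply. Klhl33 was at 2.39, 2.16 and 2.73 in the denervated mice and 16.3, 15.5 and 14.9 in the control mice (log2 fold change -2.28, SE 0.0950, adjusted p = 2.52e-06). Klhl21, which with Cul3 acts on Aurora B kinase in dividing cells, was at 8.64, 7.20 and 8.33 in the denervated mice and 23.3, 21.6 and 27.1 in the control mice (log2 fold change -1.46, SE 0.112, adjusted p = 3.75e-05). Klhl38 was at 3.40, 3.65 and 3.17 in the denervated mice and 10.8, 8.93 and 12.5 in the control mice (log2 fold change -1.40, SE 0.125, adjusted p = 7.95e-05). None of these groups overlapped. Opposite-strand genes share 65.4% of the exonic length of Klhl38 and 20.5% of that of Klhl21.

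Kbtbd13, the nemaline myopathy gene, which the table lists as a pseudogene, was low and fell to 0.476 ± 0.122 in denervated muscle, against 2.24 ± 0.135 in control muscle (log2 fold change -1.14, adjusted p = 6.60e-05). Kbtbd12 was at 5.97 ± 0.783 in denervated and 14.1 ± 0.376 in control muscle, and Klhl7, a gene mutated in a human retinal degeneration, at 2.89 ± 0.300 in denervated and 7.47 ± 0.817 in control muscle, each with a log2 fold change of -1.12 (adjusted p = 8.53e-05 and 0.000120). Klhl24, which regulates keratin and desmin filaments in skin and heart, was at 12.8, 13.3 and 11.8 in the denervated mice and 18.8, 17.5 and 19.0 in the control mice. Its groups did not overlap, and it fell by 0.51 on the log2 scale (SE 0.0849, adjusted p = 0.00189). With equal protein-coding totals its log2 fold change was positive (0.33), where the median of all genes was 0.61. Klhl34, Klhl23, Kbtbd3, Klhl8 and Kbtbd7 fell by 0.85, 0.82, 0.38, 0.37 and 0.28 on the log2 scale (adjusted p = 0.000125, 0.00554, 0.0106, 0.0169 and 0.0372). The Klhl8 call was lost without control 2, control 3 or denervated 3 (adjusted p = 0.0531 to 0.0577), and the Kbtbd7 call was lost when any 1 library other than denervated 2 was left out (adjusted p = 0.0509 to 0.116). With equal protein-coding totals both had a positive log2 fold change.

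Klhl5 had the largest rise of the Kelch-type genes. It was at 3.54, 3.74 and 2.93 in the denervated mice and 0.692, 0.569 and 0.790 in the control mice. The groups were clearly apart (log2 fold change 1.38, SE 0.107, adjusted p = 3.97e-05), with a ratio of means of 4.97. Klhl15, whose protein directs the breakdown of a phosphatase 2A subunit, was at 1.89, 1.64 and 1.82 in the denervated mice and 0.596, 1.04 and 1.17 in the control mice (log2 fold change 0.53, SE 0.130, adjusted p = 0.0115). Klhl30 was at 13.0, 13.1 and 15.4 in the denervated mice and 8.93, 11.2 and 10.6 in the control mice (log2 fold change 0.40, SE 0.112, adjusted p = 0.0197), a call lost without control 1 or denervated 3 (adjusted p = 0.0578 and 0.0623). For each of these 3 genes all denervated mice exceeded all controls.

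The remaining higher calls were of low genes. Klhl29 was at 0.711 ± 0.164 in denervated and 0.309 ± 0.0337 in control muscle (adjusted p = 0.0134). Klhl13, a partner of Klhl9 in acting on Aurora B, was at 0.880 ± 0.0968 in denervated and 0.496 ± 0.132 in control muscle (adjusted p = 0.0270), and Klhl2, which acts on the WNK kinases, at 1.26 ± 0.151 in denervated and 0.818 ± 0.151 in control muscle (adjusted p = 0.0359). The Klhl13 call was lost when control 2, control 3, denervated 2 or denervated 3 was left out, and the Klhl2 call when control 1, control 3, denervated 1 or denervated 3 was left out, with adjusted p up to 0.0851 and 0.118. Klhl9, a gene of an inherited distal myopathy, was not called although its groups did not overlap, at 9.56 ± 0.357 in denervated and 11.0 ± 0.358 in control muscle (adjusted p = 0.0845).

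The other members not called were Klhl11, Klhl12, Klhl17, Klhl18, Klhl20, Klhl22, Klhl25, Klhl26, Klhl28, Kbtbd2, Kbtbd4 and Kbtbd8. With Klhl9, these 13 genes had log2 fold changes of -0.30 to 0.14 and adjusted p of 0.0533 to 0.851. Their values ran from 0.331 to 9.96 in denervated and from 0.508 to 11.3 in control muscle. Klhl28 came nearest to a call (adjusted p = 0.0533). The opposite-strand gene Ptpmt1 shares 52.8% of the exonic length of Kbtbd4, and another opposite-strand gene shares 15.8% of that of Klhl9. The 8 members below the filter were Klhl3, Klhl4, Klhl6, Klhl10, Klhl32, Klhl35, Klhl36 and Kbtbd11, with values of 0.021 to 0.597 in denervated and 0 to 0.903 in control muscle.

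**Figure D2:**
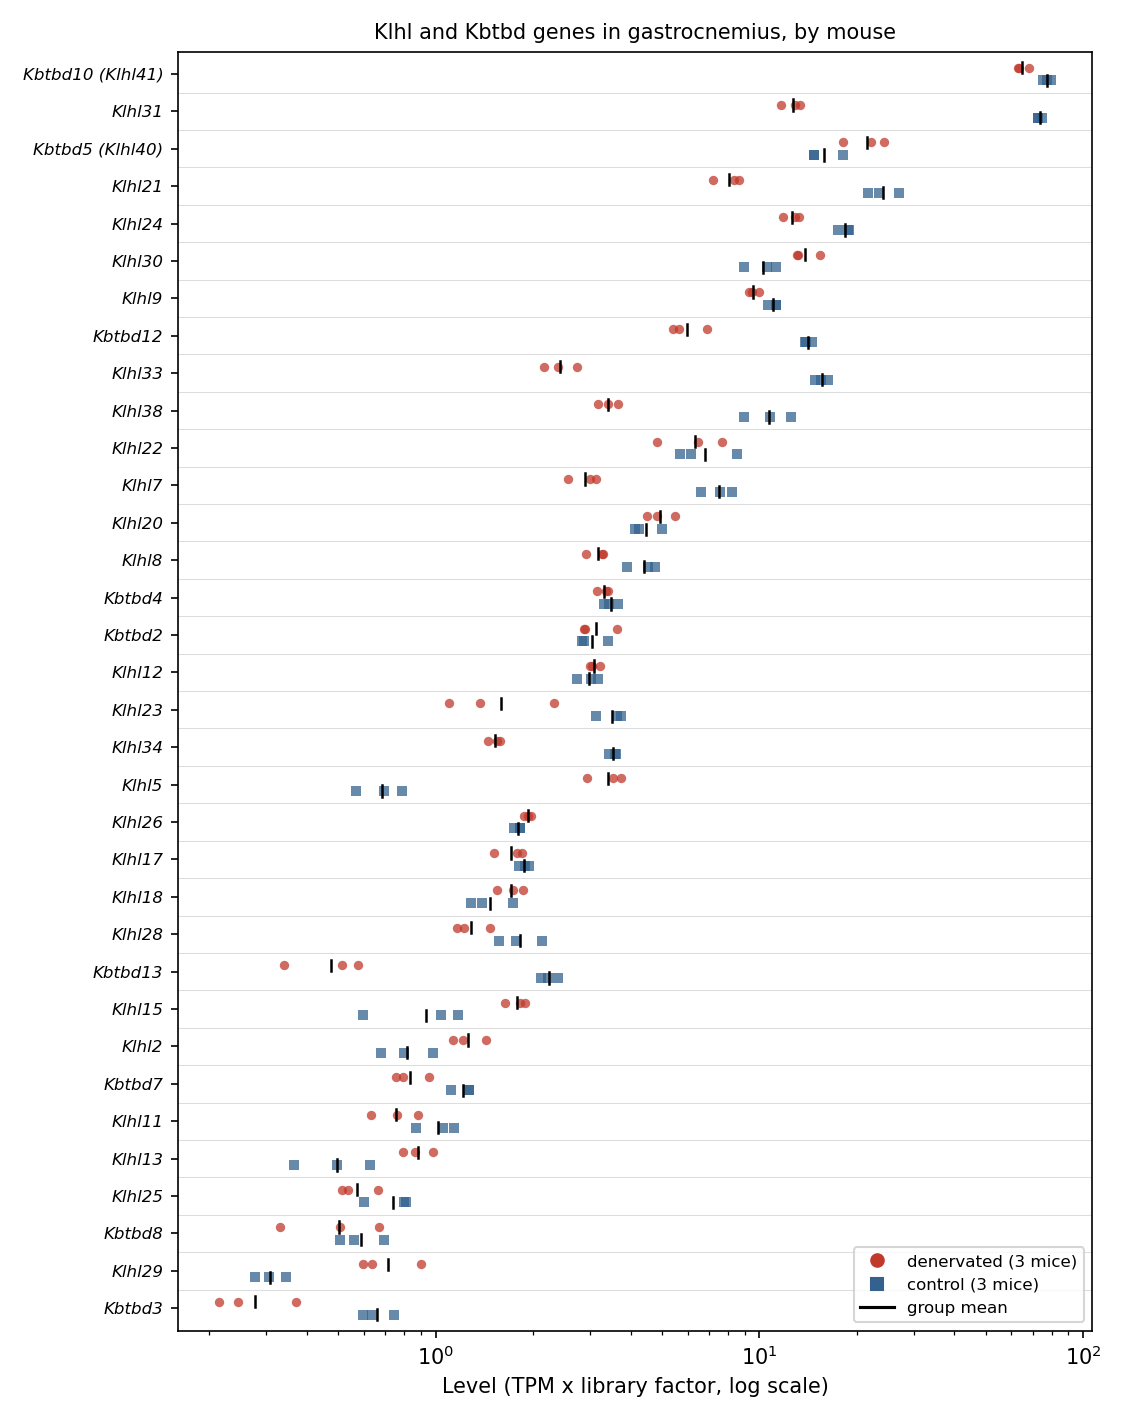
Level of each of the 34 tested Klhl and Kbtbd genes in each mouse (TPM multiplied by a library factor, log axis), with denervated mice as circles, control mice as squares and a black bar at the group mean. Klhl31 and Klhl33 lie furthest to the left of their controls, Klhl5 lies to the right (3.40 in denervated and 0.684 in control muscle), and the Kbtbd5 groups nearly touch.

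Among members with a mean level of 10 or more over all 6 libraries, 5 of 6 Asb genes were lower and 0 higher, and 5 of 8 Kelch-type genes were lower and 2 higher. Among those with a mean under 10, 6 of 10 Asb genes were lower and 1 higher, and 9 of 26 Kelch-type genes were lower and 5 higher. The medians of the log2 fold change were -1.17 and -0.40 for the abundant and less abundant Asb genes, and -0.38 and -0.09 for the Kelch-type genes. Low levels compress the fold change on this scale. Over all levels 24.3% of tested genes were lower and 22.9% higher. The calls of all tested genes were not split by level, so the contrast cannot be read as a trait of these families.

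**Figure D3:**
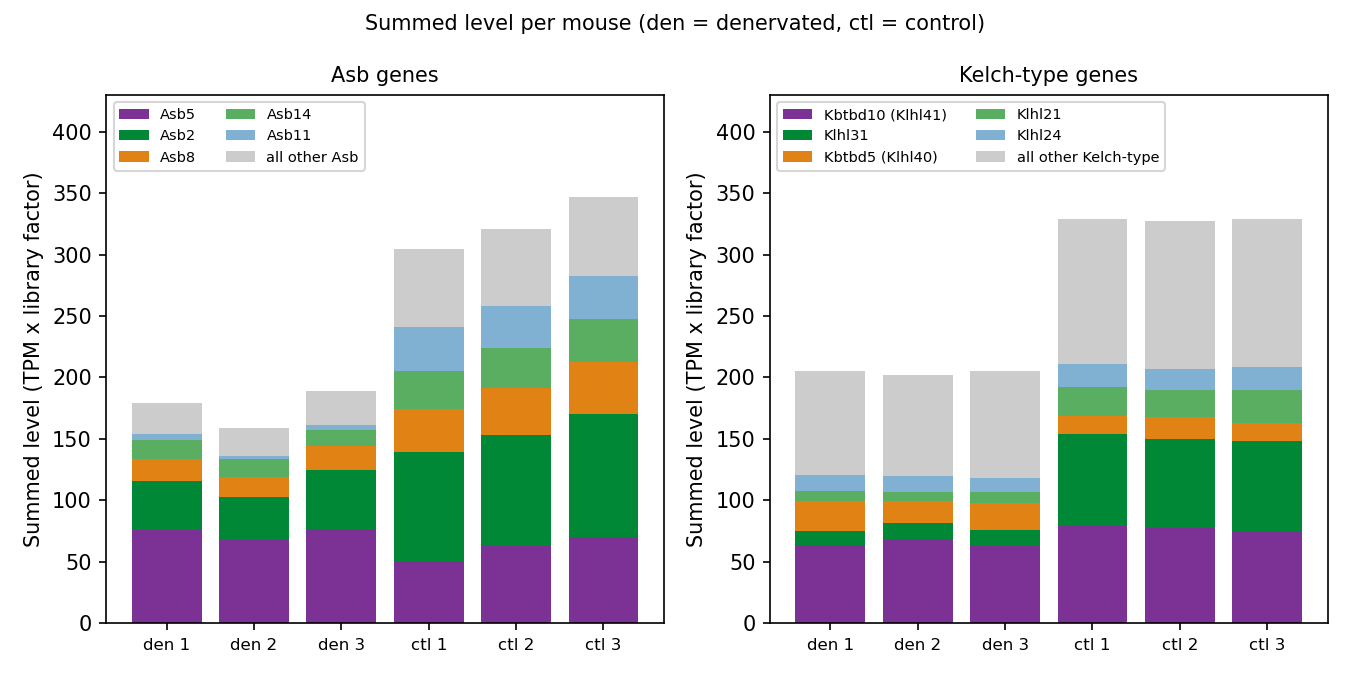
Summed level of the Asb genes (left) and the Kelch-type genes (right) in each mouse, with the 5 most abundant genes of each family in colour and the rest in grey. Denervated mice stand at 159 to 189 for Asb and 202 to 206 for Kelch-type genes and control mice at 305 to 347 and 327 to 329, and the Klhl31 band is narrow in denervated mice while the Asb5 band is 67.2 to 76.8 high in denervated and 50.5 to 70.2 in control mice. Under equal protein-coding totals the Asb sums overlap and the Kelch-type sums are higher in denervated mice.

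The cullins went both ways. Cul3 and Cul5, which the Kelch-type and Asb adaptors join, and Cul2, the scaffold of the von Hippel-Lindau ligase, were lower. Cul4a, Cul4b, Cul7 and Cul9 were higher, and Cul1, the scaffold of F-box ligases, was not called. Calls were thus made for 7 of 8 cullins (87.5%), against 47.3% of all tested genes, 24.3% as lower and 22.9% as higher. Cul3 (ENSMUSG00000004364) was at 13.3, 16.3 and 12.3 in the denervated mice and 35.8, 29.1 and 33.6 in the control mice. The groups were far apart (log2 fold change -1.18, SE 0.126, adjusted p = 0.000205), and the gene was called lower under all 5 other scalings. Cul5 was at 7.51, 9.05 and 7.07 in the denervated mice and 13.6, 11.8 and 9.96 in the control mice, a narrower gap (log2 fold change -0.52, SE 0.133, adjusted p = 0.0141). Cul2 was at 3.99, 4.89 and 4.25 in the denervated mice and 5.77, 6.82 and 6.46 in the control mice (log2 fold change -0.45, SE 0.103, adjusted p = 0.00859). With equal protein-coding totals Cul5 and Cul2 stood at 0.29 and 0.30, so their sign depended on the scaling. The median of all tested genes was 0.61 under it, so both lay below the median there as in the main fit.

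Cul7, which assembles with the F-box protein Fbxw8, had the largest rise, at 3.54, 3.62 and 3.91 in the denervated mice and 1.63, 1.92 and 1.15 in the control mice (log2 fold change 0.88, SE 0.126, adjusted p = 0.000890). Cul4a and Cul4b are the paired scaffolds that bind Ddb1. Cul4b was at 2.78, 2.90 and 2.83 in the denervated mice and 1.72, 1.69 and 1.74 in the control mice (log2 fold change 0.50, SE 0.0810, adjusted p = 0.00168). Cul4a was at 30.0, 30.2 and 30.8 in the denervated mice and 23.3, 23.1 and 25.2 in the control mice (log2 fold change 0.33, SE 0.0783, adjusted p = 0.00971). Cul9, a p53-binding cullin, was at 3.50, 3.39 and 3.59 in the denervated mice and 2.45, 2.57 and 2.71 in the control mice (log2 fold change 0.33, SE 0.0839, adjusted p = 0.0137). All 4 were called higher under each of the 5 other scalings. Their groups did not overlap, as was so for all 40 called members and for 57.5% of all tested genes. The lack of overlap is not read as support beyond the calls. The scalings are a weak check on a rise, as they mostly raised the median of all genes. Cul1 was at 12.1 in each denervated mouse and at 14.1, 10.7 and 12.4 in the control mice. In denervated muscle Cul4a was the most abundant cullin, at 30.3 ± 0.381 against 14.0 ± 2.09 for Cul3, whereas in control muscle Cul3 stood at 32.8 ± 3.41 and Cul4a at 23.9 ± 1.16.

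**Figure D4:**
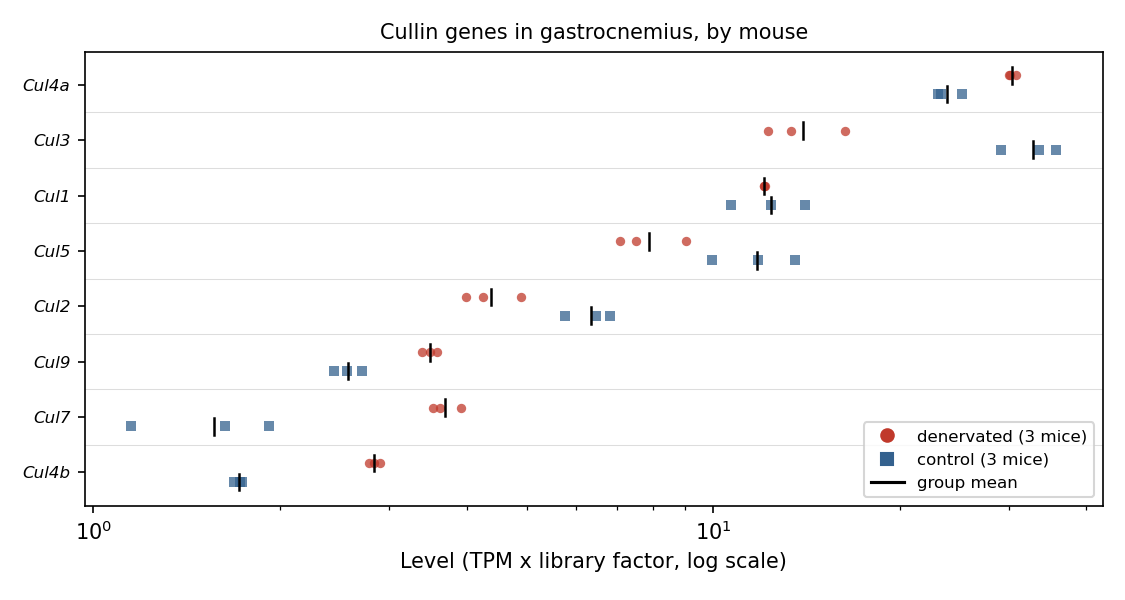
Level of each of the 8 cullin genes in each mouse (TPM multiplied by a library factor, log axis), with denervated mice as circles, control mice as squares and a black bar at the group mean. Cul3 means are 14.0 in denervated and 32.8 in control muscle, Cul4a, Cul4b, Cul7 and Cul9 lie to the right of their controls, and the Cul2 and Cul5 differences change sign with equal protein-coding totals, where the median of all genes is 0.61.

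The genes that complete and regulate these ligases were mixed, and many of their calls depended on the scaling. In the core list 2 of 6 were higher and 1 lower, against 22.9% and 24.3% of all tested genes. Ddb1, the Cul4 linker, was at 65.9 ± 1.54 in denervated and 30.1 ± 1.84 in control muscle (log2 fold change 1.10, adjusted p = 3.2e-05). Tceb2, which encodes elongin B, rose by 0.31 on the log2 scale (adjusted p = 0.0258), and both were positive under all 5 other scalings, a weak check on a rise. Rbx1, the RING subunit of most cullins, was at 14.6 ± 1.67 in denervated and 24.1 ± 1.1 in control muscle (log2 fold change -0.69, adjusted p = 0.00104). With equal protein-coding totals it stood at 0.16, where the median of all genes was 0.61. Rnf7, the RING subunit of Cul5, Tceb1 and Skp1a were not called.

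Of 11 genes of neddylation, the modification that activates cullins, 5 were lower and 0 higher, led by Dcun1d2 at 6.5 ± 0.384 in denervated and 13 ± 0.487 in control muscle (log2 fold change -0.90, adjusted p = 9.88e-05). Nae1 and Dcun1d1 were called close to the threshold (adjusted p = 0.0489 and 0.0499), and the Nae1 groups overlapped. Median-ratio scaling gave 3 lower and 0 higher neddylation genes, and equal totals of all rows gave 2 lower and 1 higher. Of 10 genes of the COP9 signalosome, which removes Nedd8 from cullins, 5 were lower and 0 higher, led by Cops2, Cops3 and Cops4 at -0.69, -0.49 and -0.47 (adjusted p = 0.0104, 0.00374 and 0.00587). Of all tested genes 24.3% were lower and 22.9% higher. The direction of both lists turned with equal protein-coding totals, where 8 neddylation genes and 9 COP9 genes were higher and 0 lower. The whole table moved in the same way, with 9036 of 12392 tested genes higher and 668 lower under that scaling. Its median of all genes was 0.61, against 0.46 for the neddylation list and 0.56 for the COP9 list. Among 6 exchange factors and regulators, Cand1 was higher at 0.58 (adjusted p = 0.0155) and Cand2 and Arih1 were lower at -0.44 and -0.46 (adjusted p = 0.0174 and 0.0128), with positive values for all 3 under equal protein-coding totals.

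Adaptors outside the name rule were called in both directions, in shares that depended on the scaling, as did those of all tested genes. Of all 12392 tested genes 22.9% were higher and 24.3% lower as deposited. Equal protein-coding totals gave 9036 of them higher and 668 lower (median 0.61). Removal of the 20 most abundant genes gave 4966 higher and 1614 lower (median 0.23). Of 20 tested other SOCS-box genes 8 were higher and 5 lower, and their median was 0.23. Equal protein-coding totals gave 15 higher and 2 lower, and after removal of the 20 most abundant genes 12 were higher and 3 lower. Spsb2 was at 4.84 ± 0.328 in denervated and 1.22 ± 0.13 in control muscle (log2 fold change 1.40, adjusted p = 2.03e-05). Cish, an inhibitor of cytokine signalling, was at 1.43 ± 0.365 in denervated and 5.5 ± 0.947 in control muscle (log2 fold change -1.42, adjusted p = 0.000193). Of 29 other BTB adaptors 6 were higher and 8 lower with a median of -0.10, and equal protein-coding totals gave 21 higher and 1 lower with a median of 0.56. Ivns1abp, a Kelch protein outside the name rule, was at 37.5 ± 7.06 in denervated and 14 ± 1.41 in control muscle (log2 fold change 1.35, adjusted p = 0.000237). Rhobtb2 fell by 1.07 on the log2 scale (adjusted p = 0.000434), and Keap1, the Kelch adaptor that controls the antioxidant factor Nrf2, was not called (adjusted p = 0.103). The directions of Spsb2, Cish, Ivns1abp and Rhobtb2 were the same under all 5 other scalings, which is a weak check for the rises of Spsb2 and Ivns1abp.

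Of 13 tested genes encoding reported partners or targets of such adaptors 5 were higher and 4 lower, and equal protein-coding totals gave 11 higher and 1 lower. Of all tested genes 22.9% were higher and 24.3% lower as deposited. Equal protein-coding totals gave 9036 of all 12392 higher and 668 lower, with a median of 0.61. Flnc, filamin C, the reported target of Klhl31, was at 92.2 ± 11.1 in denervated and 47.9 ± 3.79 in control muscle (log2 fold change 0.93, adjusted p = 0.000419). Des, desmin, a reported Asb2 target, rose by 0.61 on the log2 scale (adjusted p = 0.00219). Jak2, a kinase of cytokine receptors also reported as an Asb2 target, fell by 1.40 on the log2 scale (adjusted p = 1.52e-05). Lmod3, the leiomodin that Klhl40 steadies, was at 9.46 ± 2.11 in denervated and 20.6 ± 0.374 in control muscle (log2 fold change -1.07, adjusted p = 0.000563). Flna, filamin A, an Asb2 target, and Neb, nebulin, had log2 fold changes of -0.52 and -0.44 (adjusted p = 0.00516 and 0.0188), which were positive with equal protein-coding totals. Nrap was not called (adjusted p = 0.341). Transcript levels do not measure the proteins on which these ligases act.

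**Figure D5:**
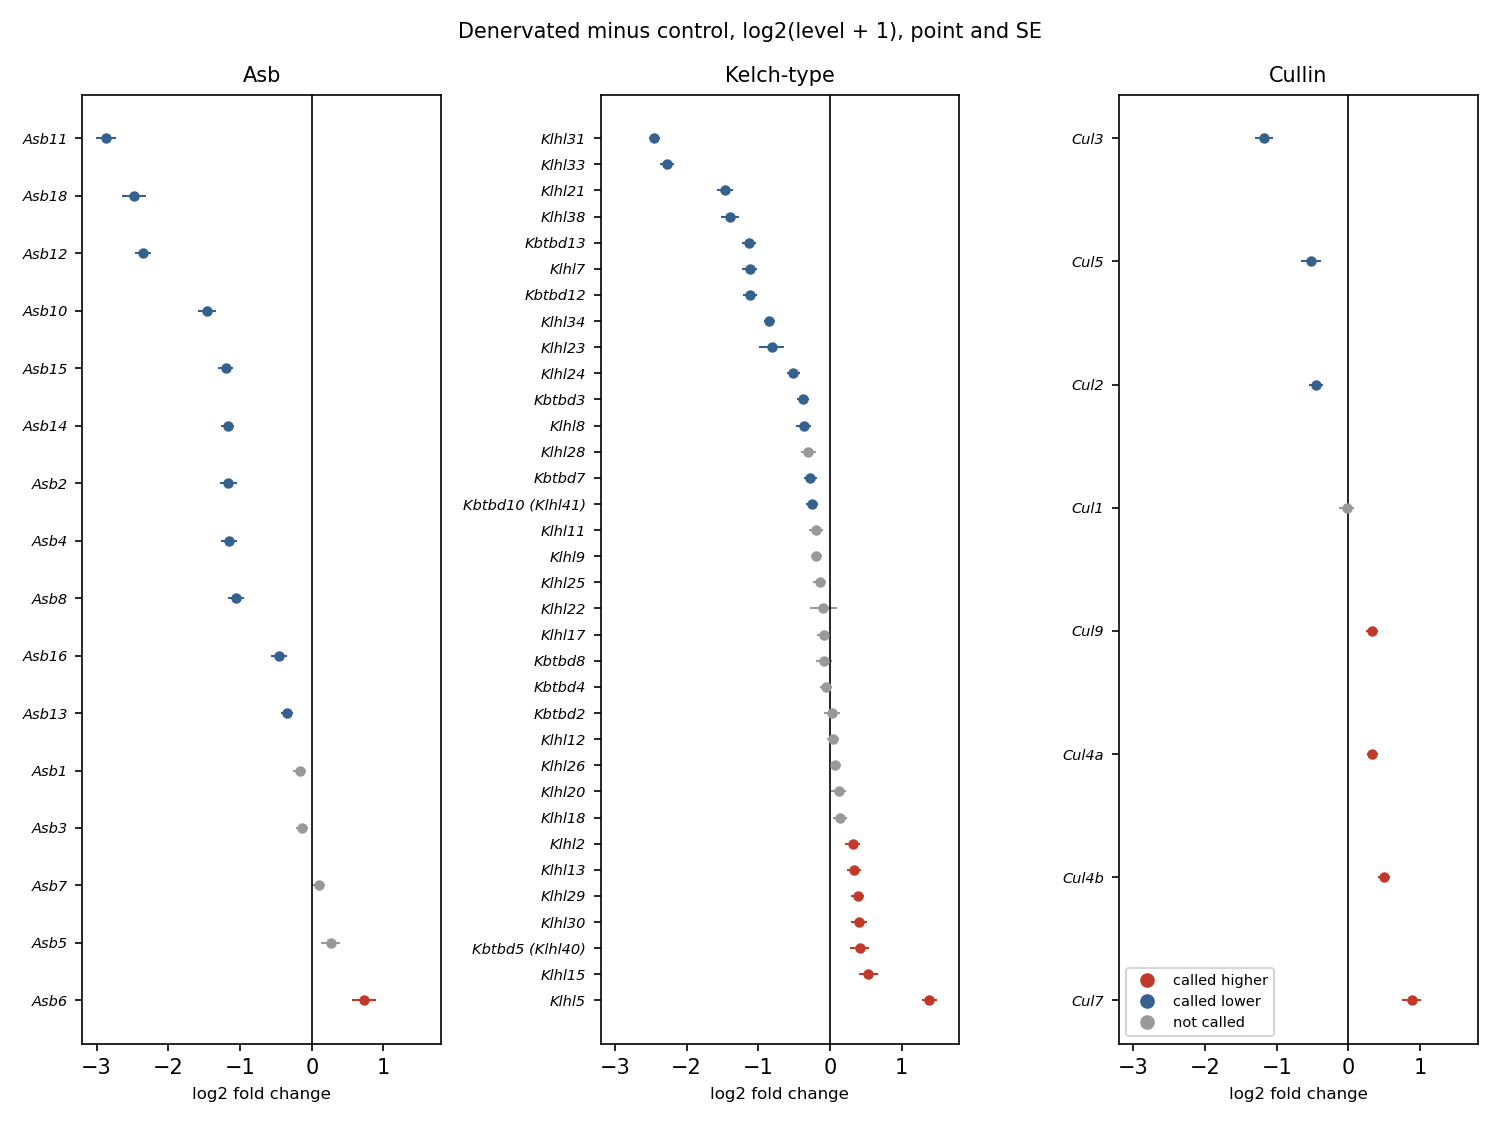
Log2 fold change (denervated minus control, on log2(level + 1)) of each of the 58 tested members with its SE, by family, coloured by call at an adjusted p below 0.05. Of the tested genes 11 Asb, 14 Kelch-type and 3 cullin genes were called lower and 1, 7 and 4 higher, against 24.3% lower and 22.9% higher over all tested genes. With equal protein-coding totals, where the median of all genes is 0.61, 8 of the lower calls change sign.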

How the data were processed

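Bulk RNA sequencing libraries of 3 denervated and 3 control gastrocnemius muscles, 1 mouse each, were compared. The submitters' processing notes list the tools RSEM 1.3.0, Bowtie2 2.2.9 and edgeR 3.12.1 beside the genome build NCBIM37, with no role or order. The table deposited by the authors holds an expression signal for 22187 genes. In each column 100% of the values between 0 and 100 lay within 0.00055 of a multiple of 0.01 times a library factor of 0.977 to 1.13, so the signal was read as TPM times that factor. For the factor's origin, the annotation release, filters and strandedness the sources used here give nothing. The values keep no read number, so depth and counting error are unknown.

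Signal was taken as log2(level + 1), and 12392 genes at 0.5 or more in at least 3 libraries were fitted with limma 3.58.1 (R 4.3.3, eBayes with trend, 4 residual degrees of freedom, two-sided). The fit was tested on simulated data. Alternatives were 5 other scalings, another pseudocount, no filter, no trend, the replicate number as a block, and leaving out each library. Members follow from their names, and members, gene lists and marker lists were chosen with earlier results of these data known. Genes given mouse by mouse are the 5 Asb and 6 Kelch-type genes with the highest mean, up to 4 largest called rises and falls per family, and called cullins. From each gene list at most 3 called genes per direction are named by size of change, with uncalled list genes and Neb chosen after their values were seen. Of 66 identifiers 65 matched the gene name table that gave current symbols, and exon overlaps were taken from GENCODE M21. Promoter sequences are from RefSeq, GRCm38.p6, a later build than the submitters' NCBIM37. No member row was identical to another row.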

Additional observations from a re-analysis of the deposited data

How the results depend on the processing

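The scaling between libraries moved many calls, and its effect on summed levels was computed after seeing the data. With equal protein-coding totals 7 Asb genes were higher and 7 lower, 19 Kelch-type genes higher and 8 lower, 1 cullin lower, and 9036 of all genes higher and 668 lower. With totals without the 20 most abundant genes 3 Asb and 11 Kelch-type genes were higher, 1 cullin was lower, and 4966 of all genes were higher and 1614 lower. Under both scalings the 4 cullins called higher in the main fit were higher as well. The cullin median was 0.91 with equal protein-coding totals. Equal totals of all rows, added after seeing the data, gave 2 higher Asb genes, and quantile normalization gave 4 higher Kelch-type genes. Signs changed with equal protein-coding totals for Asb16 (0.34), Asb13 (0.34), Klhl24 (0.33), Klhl8 (0.34), Kbtbd7 (0.18), Kbtbd10 (0.63), Cul5 (0.29) and Cul2 (0.30), and without the 20 most abundant genes for Kbtbd10 (0.0947). These scalings moved the median of all genes from -0.01 to 0.61 and 0.23. Leaving out 1 library at a time gave 3 to 6 higher and 11 to 14 lower Kelch-type genes, 1 higher and 11 lower Asb genes, 4 higher and 3 lower cullins, and 2390 to 2556 higher and 2456 to 2742 lower of all genes. No called member changed sign, and 33 of 40 kept their call in all 6 of these fits. Equal replicate numbers shared no deviation (correlations of -0.01, -0.10 and 0.02 across genes), no sample pairing follows from the numbers, and with the replicate number as a block 4 Kelch-type genes were higher and 12 lower, 11 Asb genes lower and 1 higher, and 3 cullins lower and 4 higher. A pseudocount of 0.1 and limma without trend changed no call of a named member, median-ratio scaling cost the Kbtbd10 call, and testing without a filter those of Kbtbd7, Klhl2 and Kbtbd5. The cause of these shifts was not tested, and depth is unknown.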
